A study of Mus musculus with 4 samples.

Results

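Wild-type CD8 T cells were set against wild-type CD4 T cells, each measured on 1 array, so the comparison rests on 2 of the 4 arrays of the series. The 2 arrays were those titled as wild-type CD8 and wild-type CD4, and the difference was taken as CD8 minus CD4 in log2 intensity for each probe set. The T cells were taken from lymph nodes and spleen, and the mice were 6 to 8 weeks old. The other 2 arrays hold CD4 and CD8 T cells of the same ages and tissues labelled Foxo1-deficient, and the series was titled as a search for target genes of the transcription factor Foxo1. How the T cells were isolated, how Foxo1 was deleted, the mouse strain and the number of mice behind each RNA are unstated in the labels. With 1 array per group no value has a replicate and no difference was tested. The spread between named probe sets of the same gene, 0.33 log2 units for the wild-type difference (pooled SD, 193 probe sets of 78 genes), is the only technical spread these arrays offer, and it does not cover the spread between mice.

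CD4 and CD8 T cells are the helper and cytotoxic branches of the alpha beta T cell lineage. CD4 T cells recognise peptides on MHC class II and act mainly through cytokines and costimulatory receptors, while CD8 T cells recognise peptides on MHC class I and can kill target cells with granule proteins. Foxo1 is a forkhead factor that keeps resting T cells in a naive, recirculating state, among other ways through the IL-7 receptor and homing receptors. Gene names were available only for probe sets that the authors had listed as changed without Foxo1 in CD4 or CD8 T cells, so the genes described here are Foxo1-sensitive genes seen at their wild-type level. Of 45037 probe sets analysed, 660 (1.47%) carried a usable symbol, standing for 507 genes. The defining lineage genes Cd4, Cd8a, Cd8b1, Zbtb7b and Runx3 were not among them, so the labelled cell types could be checked only through other lineage-associated genes.

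Both wild-type arrays had nearly the same overall signal, with median intensities of 77.6 (CD4) and 77.1 (CD8), and the array medians differed by -0.01 log2 units. The floor below which a value was treated as unmeasured was the median of all intensities, 74.9. Probe sets under this floor on both arrays were not compared. Where only 1 of the arrays was under it, the fold is a minimum, written "at least". Hybridisation spike-ins, which are added in equal amounts, differed by a median of -0.24 log2 units between the wild-type arrays (9 probe sets). Between wild-type CD8 and CD4, the 5 prime minus 3 prime log2 signal shifted by -0.19 for actin and by -0.12 for Gapdh. The part of these shifts in the gene differences was not tested. In such bulk samples, fewer cells of a type and less RNA per cell cannot be told apart.

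Foxo1 itself was at similar levels in both wild-type arrays. Its brightest probe set had an intensity of 8204 in CD4 and 6902 in CD8, and over its 4 probe sets the log2 difference ranged from -0.64 to -0.07. Each was thus lower in CD8 by less than 2-fold. With the intensities of the authors' deposited tables the range was -1.02 to -0.13, so the dimmest of the 4 was just over 2-fold lower. In the Foxo1-deficient arrays the brightest probe set was at 1107 in CD4 and 1836 in CD8.

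The largest wild-type differences among named genes belonged to Nkg7 and Cxcr6 on the CD8 side and to St8sia6 and Pdlim4 on the CD4 side. The 250 bases upstream of the start site of these 4 genes are given because the series asks about Foxo1 targets and the comparison is one of lineage, and the genes were picked after their values were seen. They were searched on both strands for the forkhead letters TGTTTAC and the Runx letters TGTGGT, which stand for the factor families of Foxo1 and of the CD8 lineage factor Runx3. Sequences are from RefSeq (GRCm38.p6) in the direction of the gene, with matches in capitals.
Nkg7 (chr7:43436888-43437137, plus strand): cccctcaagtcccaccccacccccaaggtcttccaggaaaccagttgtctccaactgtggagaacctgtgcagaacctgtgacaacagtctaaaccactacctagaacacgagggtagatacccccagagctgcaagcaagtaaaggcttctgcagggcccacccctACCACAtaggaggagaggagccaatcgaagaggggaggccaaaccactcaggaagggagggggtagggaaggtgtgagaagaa
Cxcr6 (chr9:123806227-123806476, plus strand): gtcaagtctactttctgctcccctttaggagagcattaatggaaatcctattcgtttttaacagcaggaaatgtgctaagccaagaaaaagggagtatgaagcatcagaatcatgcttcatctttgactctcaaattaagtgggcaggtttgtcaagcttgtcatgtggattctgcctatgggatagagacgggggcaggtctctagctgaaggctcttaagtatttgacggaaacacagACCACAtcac
St8sia6 (chr2:13793521-13793770, minus strand): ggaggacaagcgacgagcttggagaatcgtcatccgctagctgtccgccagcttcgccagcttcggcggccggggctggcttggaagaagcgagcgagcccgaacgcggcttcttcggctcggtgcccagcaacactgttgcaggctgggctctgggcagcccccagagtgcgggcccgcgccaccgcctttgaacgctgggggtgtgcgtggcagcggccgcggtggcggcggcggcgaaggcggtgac
Pdlim4 (chr11:54069018-54069267, minus strand): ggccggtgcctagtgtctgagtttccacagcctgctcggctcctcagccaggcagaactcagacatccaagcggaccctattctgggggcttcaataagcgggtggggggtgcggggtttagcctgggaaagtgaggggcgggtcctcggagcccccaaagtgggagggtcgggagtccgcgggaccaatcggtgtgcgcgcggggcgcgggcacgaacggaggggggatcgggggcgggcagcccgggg
The Runx letters stood once upstream of Nkg7, beginning 83 bases before the start site, and once upstream of Cxcr6, beginning 10 bases before it, both read on the opposite strand. Neither motif was found in the windows of St8sia6 and Pdlim4, and the forkhead letters were in none of the 4 windows. Of all 32851 promoters in the table, 14% held the Runx letters and 3.17% the forkhead letters. Promoters were held for 70 of the named genes at least 2-fold higher in wild-type CD8 and for 50 of those at least 2-fold lower. The Runx letters were in 8 of the 70 and in 8 of the 50, and the forkhead letters in 3 and 0, shares near those of all promoters. A match is only a run of letters, and no binding was measured.

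Across all probe sets the lineage difference was small for most and large for a few. Of 24371 probe sets at or above the floor in at least 1 wild-type array, 95.5% did not reach a 2-fold difference, counting minima under 2-fold, the median was -0.02 log2 units, and the range from the 5th to the 95th percentile was -0.76 to 0.72. At least 2-fold higher in CD8 were 537 probe sets (2.2% of those compared), and 562 (2.31%) were at least 2-fold lower. The counts were near balance at 2-fold, but the CD8 side held more of the large differences. At 8-fold or more, 40 probe sets were higher in CD8 and 16 lower, and at 32-fold or more 11 were higher and 3 lower. These are not counts of genes, and some of the values are minima. Those at 32-fold or more include probe sets of the same gene, for Cxcr6 (bounds of 5.47 and 5.51) and St8sia6 (-5.39 and a bound of -5.79). Among the 50 most extreme probe sets on the CD8 side 28 carried no symbol, as did 31 of 50 on the CD4 side, so most of the strongest lineage markers on these arrays are not named here. The most extreme probe set without a symbol on the CD8 side was at 24.4 in CD4 and 13077 in CD8, and that on the CD4 side at 3263 and 13.9.

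**Figure D1:**
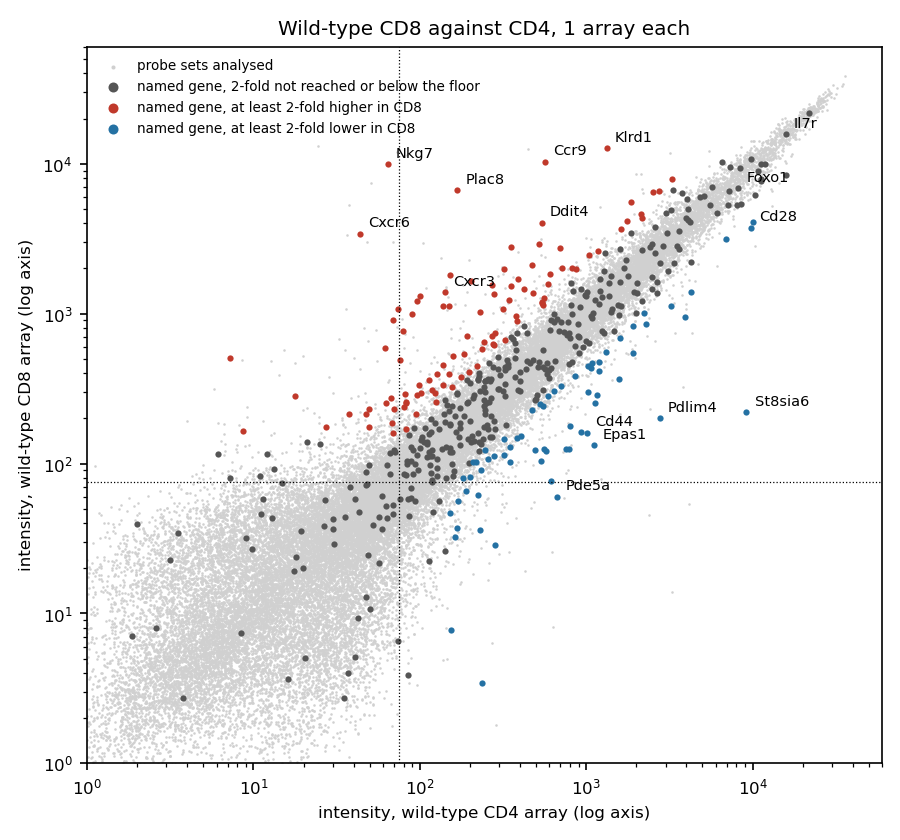
Intensity of each probe set in the wild-type CD4 array (horizontal) and the wild-type CD8 array (vertical), both on log axes, with 1 array each. Grey points are the probe sets analysed, coloured points stand for named genes, each by its brightest probe set (red for at least 2-fold higher in CD8, blue for at least 2-fold lower, dark grey for the rest), and dotted lines mark the floor of 74.9. Nkg7 and Cxcr6 stand far above the diagonal and St8sia6 far below it, while Foxo1 and Il7r lie on it.

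Named genes differed between the lineages more often than the array as a whole. Of the 507 genes, 459 were at or above the floor in at least 1 wild-type array, 405 of them in both. At least 2-fold higher in CD8 were 98 (21.4%), 66 (14.4%) were at least 2-fold lower, and 295 did not reach 2-fold, some of them with only a minimum. These shares stand beside 2.2% and 2.31% of all probe sets, but nothing can be read from the excess. The authors chose the named probe sets for a change against the same 2 wild-type arrays, and that choice and a lineage difference cannot be told apart here. The 48 remaining genes were below the floor in both wild-type arrays.

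The wild-type difference is given here by the authors' list a probe set came from. Of 132 probe sets listed only for a decrease without Foxo1 in CD8, 44 were at least 2-fold higher in wild-type CD8 than CD4 and 11 were lower, with a median log2 difference of 0.43. Those listed only for a decrease in CD4 leaned the other way, with 7 of 93 higher in wild-type CD8 and 30 lower (median -0.53). Of 75 compared that were listed only for an increase in CD4, 21 were higher and 5 lower (median 0.42), and of 129 listed only for an increase in CD8, 16 were higher and 16 lower (median -0.04). Each list was drawn against a wild-type array that also enters the lineage difference, so the lean and the choice cannot be told apart. In the Foxo1-deficient pair, 6 of the 119 compared from the first group were at least 2-fold higher in CD8 and 50 lower. That group was chosen for a low deficient CD8 array, so this lean and the choice cannot be told apart either.

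**Figure D2:**
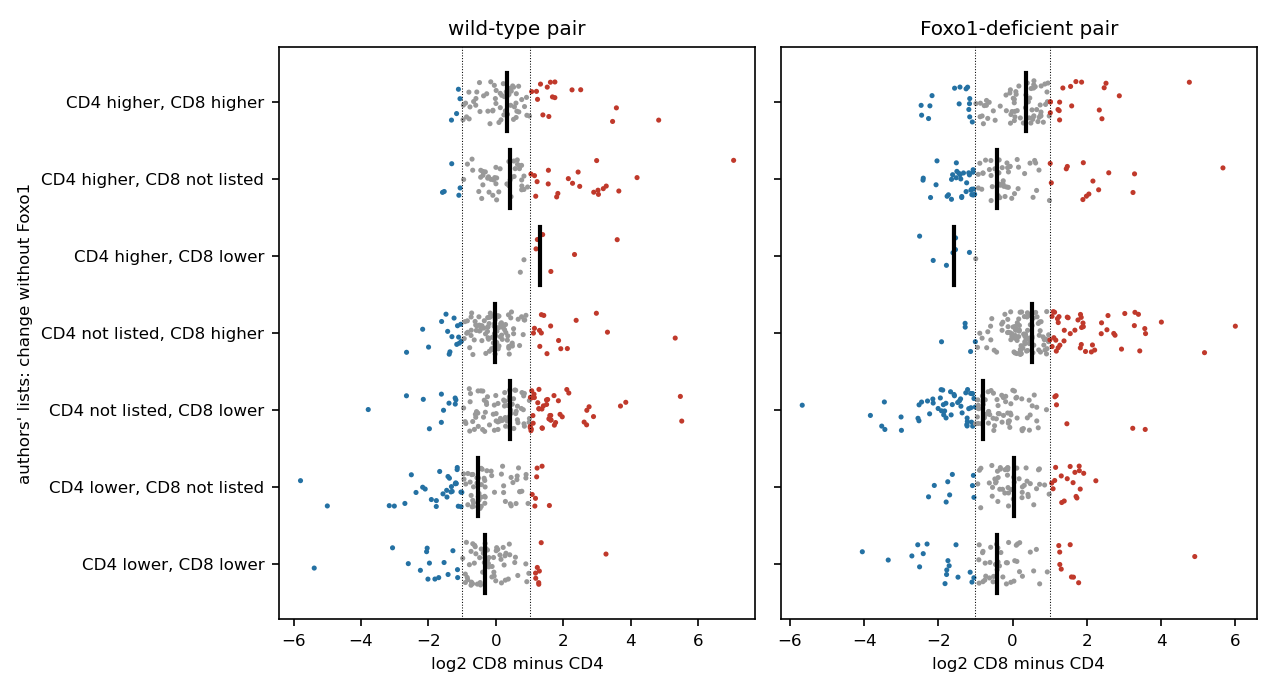
Log2 CD8 minus CD4 difference of each named probe set in the wild-type pair (left) and the Foxo1-deficient pair (right), grouped by whether the authors listed it as higher, lower or not listed without Foxo1 in each cell type. Points are probe sets (red at least 2-fold higher in CD8, blue at least 2-fold lower), thick bars are medians and dotted lines mark 2-fold. Probe sets listed only as lower in CD8 lean to the CD8 side in the wild-type pair (median 0.43) and to the CD4 side in the deficient pair (median -0.81). The lists were drawn on these same arrays, so neither lean can be told apart from that choice.

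Nkg7 led the CD8 side, and the other named genes of cytotoxic lymphocytes were higher in CD8 by smaller folds or minima. Nkg7, a protein of cytotoxic granule membranes, was at 64.1 in wild-type CD4 and 9924 in wild-type CD8, at least 133-fold higher, and at 195 and 9919.6 in the deficient CD4 and CD8 arrays. Both CD8 arrays were thus high and alike and both CD4 arrays low. Klrd1, the CD94 chain of NK-type lectin receptors, was at 1327 and 12752 in the wild-type arrays (9.61-fold) and at 95.8 and 2875 in the deficient ones, so CD8 was higher in each genotype while both levels were lower without Foxo1. Cd160, a receptor of cytotoxic lymphocytes, was at least 7.89-fold higher (61.4 and 591), and was 36.0-fold higher between the deficient arrays (79.5 and 2862). Leaving out probe sets that can match several transcripts, Cd160 was higher by 1.35 log2 units. The T-box factor gene Eomes was 4.83-fold higher in CD8 (279 and 1350), and Cst7, an inhibitor of lysosomal proteases, was 5.72-fold higher (270.2 and 1544). For both genes the deficient arrays also had CD8 above CD4, at 438 and 2183 for Eomes and 837 and 4224 for Cst7. Of the list of CD8 lineage genes, 8 of 14 carried a symbol. All 6 at or above the floor were at least 2-fold higher in CD8, with a median of 2.75 that counts minima. Of them Nkg7, Cd160 and Ccl5 were below the floor in CD4, so they were compared only through CD8 and could only come out higher. Among 19 cytotoxic and effector genes, which share Nkg7, Klrd1, Cd160, Eomes and Ccl5 with that list, 6 of 7 compared were higher (median 2.27). Tbx21, too, was compared only through CD8. Both counts stand beside 21.4% of the named genes compared and 2.2% of all probe sets, and the floor fixed part of them in advance. The seventh cytotoxic and effector gene compared was the granzyme gene Gzma, at 95.6 and 113 in the wild-type arrays and at 424 and 2428 in the deficient arrays. Gzmb was below the floor in both wild-type arrays. The weakest of the 6 were bounds, at least 2.35-fold for the chemokine gene Ccl5 and at least 2.21-fold for Tbx21, which encodes T-bet. With the intensities of the authors' deposited tables Ccl5 was higher by only 0.90 log2 units. Of the NK cell markers only Klrd1 and Klra9 carried a symbol, and Klra9 was higher in CD8 by at least 1.58-fold (65.9 and 118).

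The 3 receptors that were at least 2-fold higher in CD8 on the list of chemokine and migration receptors all bind chemokines. Cxcr6, the receptor of the membrane-bound chemokine CXCL16, was at 43.8 in CD4 and 3416 in CD8, at least 45.6-fold higher, and its second probe set gave a log2 bound of 5.47. Ccr9, which directs T cells to the small intestine, was at 567 and 10314 (18.2-fold), and its 3 probe sets spanned log2 differences of 2.38 to 4.83, the lowest of them a bound. Cxcr3, the receptor for interferon-induced chemokines, was at 141 and 1395 (9.91-fold). In the deficient arrays CD8 was also above CD4 for Cxcr6 (55.3 and 891), Ccr9 (1568 and 14853) and Cxcr3 (319 and 3823). Cxcr4 (0.67) and Cxcr5 (0.40) did not reach 2-fold. The oxysterol receptor gene Gpr183 ran the other way, at 4251 in CD4 and 1385 in CD8, 3.07-fold lower, and was at 3787 and 476 in the deficient arrays. Nrp1, a coreceptor for semaphorins and VEGF, was 3.40-fold lower in CD8 (347 and 102), and its probe sets disagreed in size, from -1.77 to -0.50. Of the 15 receptors on this list 8 were compared, 3 higher and 2 lower in CD8, with a median of 0.54 that counts a minimum. Cxcr6 was below the floor in CD4, so it was compared only through CD8 and could only come out higher. Of the named genes compared, 21.4% were at least 2-fold higher and 14.4% lower, as were 2.2% and 2.31% of all probe sets.

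Other genes on the CD8 side had roles outside killing and migration. Plac8, which encodes a small cysteine-rich protein, was at 167 in CD4 and 6670 in CD8 (39.9-fold), and at 179.9 and 11516 in the deficient arrays. Nedd4, a ubiquitin ligase gene, was 12.5-fold higher in CD8, and Ggt1, which begins the breakdown of extracellular glutathione, 11.9-fold. Ddc, the aromatic amino acid decarboxylase gene, was 11.0-fold higher, and the cation channel gene Trpm1 9.66-fold. Ahnak, a giant scaffold protein gene, was 8.16-fold higher, the chondroitin synthase gene Chsy1 7.93-fold and Ccdc102a 8.23-fold. All 7 of these, Nedd4 to Ccdc102a, were in the authors' list of genes higher without Foxo1 in CD4 T cells, a list that was drawn against the same wild-type CD4 array. For each of them deficient CD8 was again above deficient CD4, by 2.78-fold (Ccdc102a) to 9.75-fold (Nedd4). Slc6a19, a transporter of neutral amino acids, was 12.9-fold higher in wild-type CD8 (101 and 1306), LOC100039228 7.44-fold (150.03 and 1116) and Eng, the TGF-beta coreceptor endoglin, 6.45-fold (76.0 and 490.2). Cryl1, which encodes a crystallin-like dehydrogenase, was at least 14.4-fold higher (73.5 and 1081). Slc6a19, Cryl1, LOC100039228 and Eng were in the authors' list of genes lower without Foxo1 in CD8. In the deficient CD8 array they were at 53.7, 38.8, 156 and 209. All 4 were thus below the wild-type CD8 array, which follows from their place on that list.

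**Figure D3:**
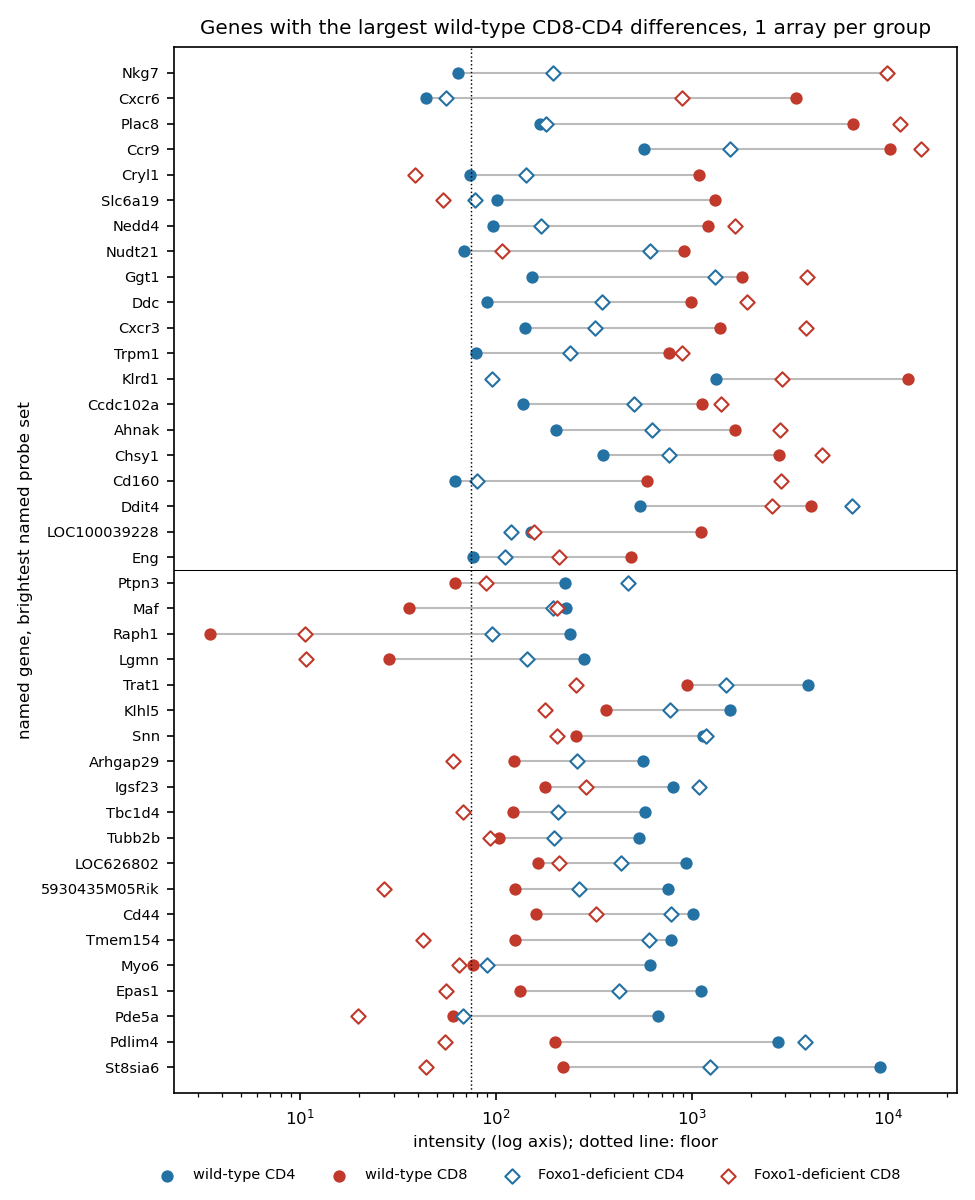
Intensity (log axis) in all 4 arrays of the 15 named genes with the largest measured difference and the 5 with the largest bound in each direction in the wild-type pair. Filled circles are wild-type and open diamonds Foxo1-deficient arrays, blue for CD4 and red for CD8, 1 array each, grey bars join the wild-type values and the dotted line is the floor of 74.9. For Nkg7, Plac8 and Ccr9 both CD8 arrays lie to the right of both CD4 arrays, while for Slc6a19 and Cryl1 only the wild-type CD8 array is high.

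On the CD4 side St8sia6 stood apart. This sialyltransferase gene was at 9178 in wild-type CD4 and 219 in wild-type CD8, 41.9-fold lower, and its other probe sets gave log2 bounds of -5.79 and -5.00, CD8 being below the floor on both. In the deficient arrays it was at 1238 in CD4 and 44.1 in CD8, below the floor. Pdlim4, a PDZ and LIM domain protein gene, was 13.8-fold lower in CD8 (2760 and 200.03, and 3801 and 55.2 without Foxo1). Epas1, which encodes the hypoxia-inducible factor HIF-2 alpha, was 8.37-fold lower (1112 and 133). Pde5a, whose product breaks down cyclic GMP, was lower by at least 8.96-fold (671 and 60.3) and was below the floor in both deficient arrays. The motor protein gene Myo6 was 8.07-fold lower by its brightest probe set (614 and 76.1), while its other probe set gave a log2 bound of -1.46. In the deficient arrays the brightest was at 90.4 and 64.5, the second of which is below the floor.

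Trat1 and 3 of 6 costimulatory and inhibitory receptors compared were lower in wild-type CD8. Trat1, an adaptor that associates with the T cell receptor, was 4.11-fold lower (3901 and 949). Cd28, which delivers costimulation when naive T cells are primed, was at 9810.0 in CD4 and 3740.03 in CD8, 2.62-fold lower. The gap was wider between the deficient arrays, at 6519 and 595. The authors had listed Cd28 as lower without Foxo1 in CD8 and not in CD4, so the wider gap follows from that choice. Tnfrsf4, the receptor OX40, was 2.09-fold lower (591 and 283), and the inhibitory receptor gene Pdcd1 2.24-fold lower (181 and 80.6). Icos was within 2-fold (923 and 1106) and Tnfrsf9 was 1.51-fold higher in CD8. The sixth of the 14 on that list to be compared was Cd160, the only one at least 2-fold higher. It was below the floor in CD4, so it could only come out higher. Of the CD4 lineage list 4 of 11 were compared, with Cd28 and Tnfrsf4 lower in CD8 and Icos and Rora within 2-fold (median -0.55). The counts of both lists, which share Cd28, Tnfrsf4 and Icos, stand beside 14.4% of the named genes compared and 2.31% of all probe sets lower in CD8. These 4 genes of the CD4 lineage list are the only check of the CD4 label that the named genes allow.

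The remaining genes with large differences toward CD4 had varied functions. Cd44, the hyaluronan receptor used as a marker of T cell activation, was 6.28-fold lower in CD8 on its only named probe set (1008 and 161). Tmem154 was 6.29-fold lower, 5930435M05Rik 6.06-fold and LOC626802 5.69-fold. The tubulin gene Tubb2b was 5.17-fold lower, and the Rab regulator gene Tbc1d4 4.72-fold. Igsf23 was 4.51-fold lower, Arhgap29 4.51-fold, Snn 4.45-fold and Klhl5 4.28-fold. Bounds were at least 3.77-fold for the lysosomal protease gene Lgmn, 3.18-fold for Raph1 and 3.05-fold for the transcription factor gene Maf, and the phosphatase gene Ptpn3 had a log2 bound of -1.58. Of these 14 genes CD8 was below CD4 between the deficient arrays as well, except for Maf, at 195 in CD4 and 205 in CD8.

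Of 18 naive T cell genes on the list, 9 carried a symbol, and all 9 were within 2-fold between the wild-type arrays, with a median of -0.25. This stands beside 295 of 459 named genes and 95.5% of all probe sets that did not reach 2-fold, so nothing particular to the list can be read from it. The largest differences were those of Itga6 (-0.52), Sesn1 (-0.52), Socs3 (-0.38) and Igfbp4 (-0.28). Il7r, the IL-7 receptor alpha chain, was at 15808 in CD4 and 15759.7 in CD8, and Il6ra, the IL-6 receptor alpha chain, at 1784 and 1792. The wild-type arrays were thus alike for both receptors. Between the deficient arrays 3 of the 9 were at least 2-fold lower in CD8, namely Il6ra (2072 and 362), Itga6 (1066 and 242) and Igfbp4 (12696 and 3487), beside 106 of 472 named genes compared there. For all 3, the CD4 arrays were within 2-fold of each other and deficient CD8 was the low array. The authors had listed all 3 as lower without Foxo1 in CD8 and not in CD4, so this pattern follows from that choice. Il7r and Il6ra are given because of their known place in naive T cells, chosen after their values were seen.

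The activation and memory list held differences in both directions. Of 13 members compared, Cxcr6, Cxcr3 and Ahnak were at least 2-fold higher in wild-type CD8 and Cd44 and Ly6a lower, with a median of 0.46. Cxcr6 was compared only through CD8 and could only come out higher. Among all named genes compared 21.4% were higher and 14.4% lower, and among all probe sets 2.2% and 2.31%. The counts are near the shares of named genes, so nothing particular to the list can be read from them. Ly6a, the surface protein Sca-1, was at 10051 in CD4 and 4070.1 in CD8, but at 14905 and 14386 in the deficient arrays. In the list of genes that T cell receptor signals induce, Nr4a1, an orphan nuclear receptor gene, was 2.89-fold lower in CD8 (1189.8 and 411), and Nr4a3 differed by -0.69 log2 units. Ddit4 was 7.47-fold higher (541 and 4040.3), and Map3k8, a kinase gene, was higher by at least 2.50-fold, or by 0.91 log2 units with the intensities of the authors' deposited tables. In all, 2 of 7 compared on that list were higher and 1 lower. Map3k8 was below the floor in CD4, so it could only come out higher. The counts are near the 21.4% and 14.4% of named genes, so nothing particular to this list can be read from them either.

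Transcription factors of helper and regulatory T cells showed no common direction. Of 6 helper lineage factors, Tbx21 was higher and Maf lower in CD8, and Bcl6 (-0.49), Rora (-0.04), Ahr (-0.17) and Stat4 (0.60) were within 2-fold. Ikzf2, which encodes Helios, was 3.36-fold higher in CD8 (318 and 1068), or by 1.14 log2 units as the mean of its probe sets. Foxp3 was below the floor in both wild-type arrays (47.7 and 71.6), and Nrp1 and Tnfrsf4, the other regulatory T cell markers compared, were lower in CD8. In the apoptosis list Bcl2l11, encoding Bim, was 3.57-fold higher in CD8 (81.9 and 293) and Cflar, a caspase-8 inhibitor, 2.68-fold lower (407 and 152), while Bmf (0.39) was within 2-fold and Pmaip1 was higher by at least 1.23-fold (13.2 and 91.8). The phosphodiesterase genes Pde2a (2.44-fold) and Pde7a (2.26-fold) were higher in CD8, opposite to Pde5a, and Pde4b was within 2-fold (-0.33). Both integrin chains followed, Itga4 (0.28) and Itga6, were within 2-fold, as were Slamf6 (0.02), Slamf7 (0.06) and Sh2d1a (-0.45) of the SLAM family list. Of 13 interferon response genes only Gbp3, a guanylate-binding protein gene, was at least 2-fold higher in CD8 (546 and 1180.2) and none lower by its brightest probe set. The next largest were Iigp1 (-0.77, and -1.11 on its other probe set), Gvin1 (0.52) and Gbp6 (0.52). None of the 5 named cell cycle genes reached 2-fold, with Ccna2 at -0.13, Rrm2 at 0.53, Mki67 at 0.52, Nusap1 at 0.40 and Cdc6 with a bound of -0.02. Tbx21 and Pmaip1 were compared only through CD8, and Maf, Pde5a and Cdc6 only through CD4, so their directions were fixed in advance. Of the named genes compared, 21.4% were higher, 14.4% lower and 295 of 459 did not reach 2-fold, nor did 95.5% of all probe sets. Nothing particular to any of these lists can be read from their counts.

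**Figure D4:**
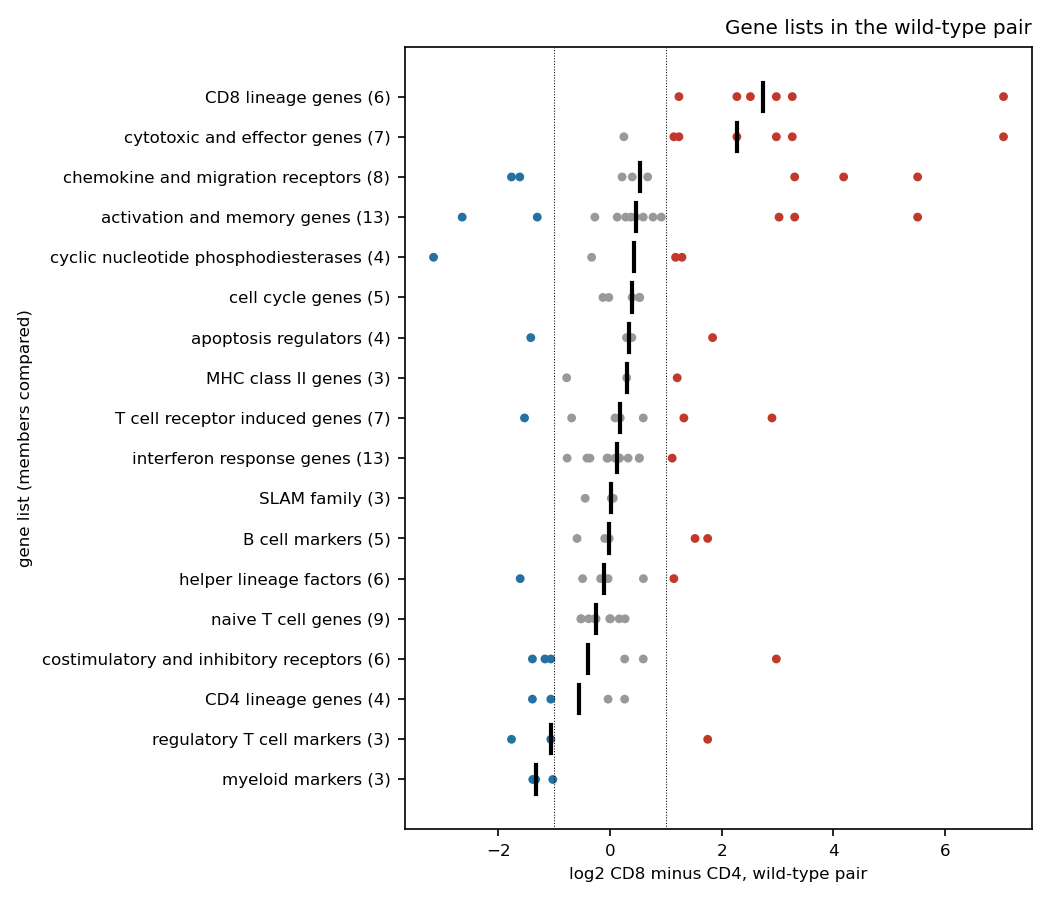
Log2 CD8 minus CD4 difference in the wild-type pair for each named member of the gene lists with at least 3 members compared, with the number compared in brackets. Points are genes (red at least 2-fold higher in CD8, blue at least 2-fold lower, grey 2-fold not reached), thick bars are list medians and dotted lines mark 2-fold. The CD8 lineage list has all 6 members compared on the CD8 side, Nkg7, Cd160 and Ccl5 only through the CD8 array. The naive list has all 9 within 2-fold.

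Named markers of other cells showed no common direction between the wild-type arrays, and the myeloid and immunoglobulin ones were at low levels there. Of 14 myeloid markers 3 carried a symbol, Lyz1, Lyz2 and Fcgr3, and all 3 were lower in CD8, with log2 differences of -1.39 (Lyz1) and bounds of -1.03 (Lyz2) and -1.33 (Fcgr3). Lyz2 and Fcgr3 were below the floor in CD8, so they were compared only through CD4 and could only come out lower. The count stands beside 14.4% of the named genes compared and 2.31% of all probe sets. The summed intensity of the 3 was 576 in wild-type CD4 and 202 in wild-type CD8, which includes values below the floor. The 6 named B cell markers, all immunoglobulin genes or their joining chain, summed to 776 and 1025, and to 5978 and 9768 in the deficient CD4 and CD8 arrays. Of these, Igh (at least 3.36-fold) and Igh-VJ558 (at least 2.87-fold, and 0.35 log2 units on its other probe set) were higher in CD8, while Igk-V1 (-0.02), Jchain (-0.10) and Igkc (-0.59) were within 2-fold. With the intensities of the authors' deposited tables Igh (0.87) and Igh-VJ558 (0.70) were also within 2-fold, and probe sets of these families can cross-hybridise. The rest of the B cell list carried no symbol. Of the class II genes H2-DMa was 2.30-fold higher in CD8 (556 and 1279, and 0.70 log2 units on its other probe set). H2-Aa (-0.78, 791 and 461) and H2-Ob (0.30, 2165 and 2661) were within 2-fold. The gamma delta T cell gene 5830411N06Rik (0.31) and the haemoglobin gene Hba-a1 (-0.34) were within 2-fold, and Cd163l1 was lower in CD8 by at least 1.74-fold (130.5 and 56.5). The part of such cells in the lineage differences was not tested.

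The Foxo1-deficient arrays give the same CD8 minus CD4 difference in a second pair that shares no array with the first. Whether the arrays share mice or a batch is unstated in the labels. Of the probe sets at least 2-fold higher in wild-type CD8, 522 could be compared in the deficient pair, and 228 (43.7%) were at least 2-fold higher there too and 22 at least 2-fold lower. On the other side 218 of 544 (40.1%) were at least 2-fold lower again and 2 were higher. The background in the deficient pair was 1.92% higher and 2.94% lower, 4.87% in all, among 23637 probe sets compared. The share that recurred grew with the size of the wild-type difference. Of those at least 4-fold higher, 83 of 97 (85.6%) were at least 2-fold higher in the deficient pair, and of those at least 4-fold lower, 46 of 51 (90.2%) were lower again. Outside the authors' lists, 169 of 400 (42.3%) recurred on the CD8 side and 175 of 470 (37.2%) on the CD4 side, against 56 of 113 (49.6%) and 42 of 72 (58.3%) of the probe sets with a symbol. Across 22633 probe sets Pearson's r between the differences of the 2 pairs was 0.56 and Spearman's rank correlation 0.42, a description across probe sets that are not independent. The array medians of the deficient pair differed by -0.13 log2 units, against -0.01 in the wild-type pair.

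Among named genes, 42 were at least 2-fold higher in CD8 in both pairs and 33 lower in both. Another 41 that were higher in wild-type CD8 and 25 that were lower did not reach 2-fold between the deficient arrays, and 4 and 8 could not be compared there. Conversely 32 genes that did not reach 2-fold in the wild-type pair were at least 2-fold higher in deficient CD8 and 53 lower. Named genes had been chosen on all 4 arrays, so these counts describe the arrays and not a rate. With values set to the floor, the genes whose deficient difference lay farthest above the wild-type one were Myo6, Tbx21, Cd160, Ppp2ca and Chst11. The wild-type folds of Tbx21, Cd160 and Chst11 and the deficient fold of Myo6 are minima, so for these 4 neither the rank nor a change of the difference is established. Tbx21 was at least 2.21-fold higher in wild-type CD8 (8.65 and 165) and 11.8-fold higher in deficient CD8 (109.7 and 1295). Chst11, a chondroitin sulfotransferase gene, was at least 2.86-fold and 10.5-fold higher. The named probe set of Ppp2ca, a phosphatase subunit gene, was 2.70-fold lower in wild-type CD8 (349 and 130) and 1.47-fold higher in deficient CD8 (258 and 378). The genes farthest below were Nudt21, Cryl1, Ddit4, Slc6a19 and Ghitm, with minima in at least 1 pair for Nudt21, Cryl1 and Slc6a19.

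**Figure D5:**
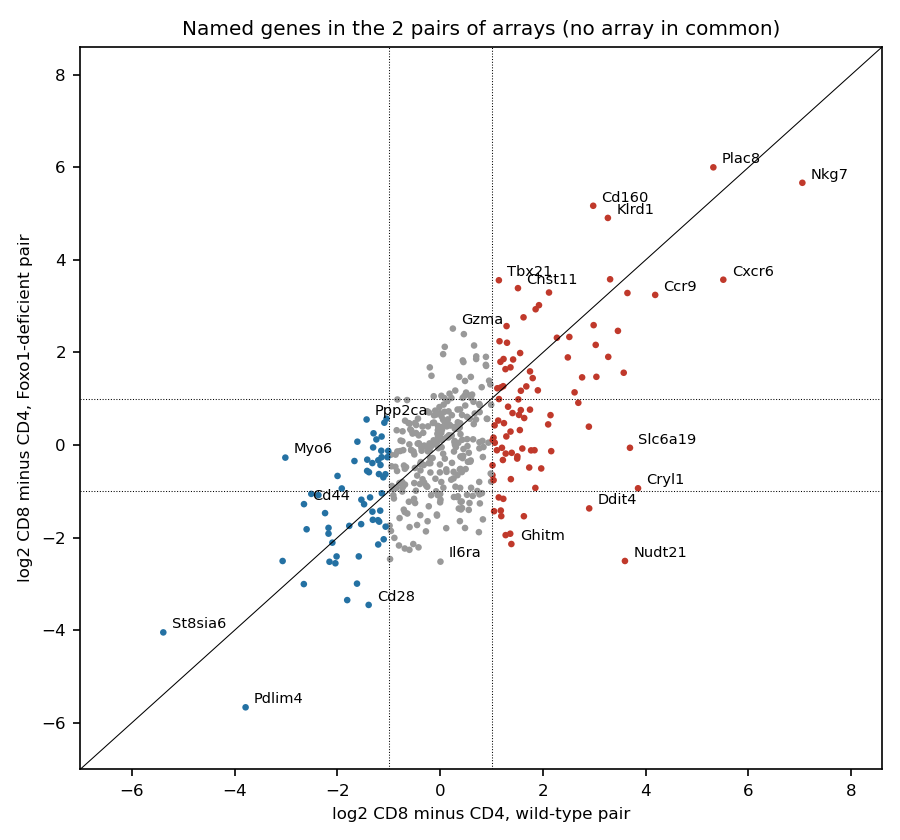
Log2 CD8 minus CD4 difference of each named gene in the wild-type pair (horizontal) and in the Foxo1-deficient pair (vertical), which have no array in common. Points are genes (red at least 2-fold higher in wild-type CD8, blue at least 2-fold lower, grey 2-fold not reached), dotted lines mark 2-fold and the solid line equal differences. Plac8, Nkg7, St8sia6 and Pdlim4 lie near the ends of the diagonal, while Ddit4, Ghitm and Nudt21 fall below zero in the deficient pair.

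A small group of genes was at least 2-fold different in opposite directions in the 2 pairs. All 11 named genes of this kind were higher in wild-type CD8 and lower in deficient CD8, and none ran the other way. Ddit4, which restrains mTOR under stress, was at 541 in wild-type CD4, 4040.3 in wild-type CD8, 6595 in deficient CD4 and 2555 in deficient CD8. Nudt21, a subunit of the pre-mRNA cleavage factor, was at 68.7, 906, 609 and 107 in the same order, and its second probe set at 81.1, 408, 279 and 81.1. Wild-type CD8 and deficient CD4 were the 2 high arrays for both genes. Among all 22633 probe sets compared in both pairs, 22 had this direction and 2 the reverse. In 21 of the 22 both wild-type CD8 and deficient CD4 lay above both other arrays. Picking opposite 2-fold differences already makes that order likely, so it is no separate result. Of the 22, 6 were outside the authors' lists.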

How the data were processed

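Per the labels' protocols, 0.5 ug of total RNA per sample gave biotin-labelled cRNA for Affymetrix arrays. The authors deposited a table of linear intensity values for 4 arrays (1 per group). Summarisation, background correction and scaling are unstated there. The authors also deposited, per cell type, a table with a symbol, the ratio between genotypes (deficient over wild-type) and the raw intensity of each, per the file headers. Its header names stand 1 column left of the values.

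Of 45101 probe sets, 64 controls were left out. Symbols came only from those 2 tables, which hold 694 probe sets, 33 of them unnamed and 1 named by what reads as a date. Of the 660 symbols, 563 were current in RefSeq's gene list (GRCm38.p6), 56 were replaced by the current symbol of the 1 gene with that synonym, and 41 stayed as given.

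Log2 was taken with no scaling. Values below the floor, the median of all non-control values (74.9), were set to it. Each gene was followed through its named probe set with the highest mean over the 4 arrays. A fold of 2 was the threshold, and no test was run. The number of arrays limits the precision. The counting was checked on simulated data.

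The named genes were, by rule, Foxo1, the 15 with the largest measured difference and the 5 with the largest bound each way, the 5 each way whose deficient difference lay farthest from the wild-type one, and list members (all if 6 or fewer were compared, otherwise the 4 largest), though not every such member is given. Any other gene named, and the genes with opposite differences, were picked with their values known. The comparison and the 22 gene lists were chosen with earlier results of these data known. Alternatives were a floor at the 25th or 75th percentile, no floor, centring, quantile normalization, other thresholds, averaged probe sets per gene, no probe sets shared between transcripts, and the authors' wild-type intensities. The software was numpy 2.4.6, pandas 2.3.3 and matplotlib 3.10.9 under Python 3.11.15.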

Additional observations from a re-analysis of the deposited data

Results flagged for a closer look

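In 11 named genes the CD8 minus CD4 difference had opposite signs in the wild-type and Foxo1-deficient pairs, at least 2-fold each way, with 1 array per group, and the difference between the pairs was not tested. In the wild-type pair the log2 difference was 3.60 for Nudt21, 2.90 for Ddit4, 1.63 for Zfp142, 1.39 for Ghitm, 1.36 for Gpcpd1, 1.27 for Zfp148, 1.23 for Exoc6, 1.19 for Rlf, 1.18 for R3hdm1, 1.14 for Ube2d2a and 1.05 for Cklf. In the deficient pair it was -2.50, -1.37, -1.54, -2.14, -1.92, -1.95, -1.16, -1.54, -1.41, -1.13 and -1.43 in the same order. Values of Nudt21, Zfp142 and Exoc6 in the wild-type pair and of Zfp142, Zfp148 and Exoc6 in the deficient pair are bounds, and Exoc6 was within 2-fold there (0.69) with the intensities of the authors' deposited tables. The authors had listed all 11 for a change without Foxo1 in at least 1 cell type, against the same wild-type arrays.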

How the results depend on the processing

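No paired analysis was possible because each group holds 1 array and the labels carry no replicate numbers. Averaging the probe sets of a gene, leaving out shared ones, quantile normalization and centring each array kept every count they apply to within 1.5 times. The floor mattered most. At the 25th percentile (17.7) the wild-type counts were 2492 higher and 2533 lower in CD8, with 469 and 578 recurring in the deficient pair, and with no floor 5438 and 5262, with 1370 and 1517. At the 75th percentile (471) they were 164 and 109, with 95 and 52 recurring. There, 49 named genes were higher and 25 lower in the wild-type pair, 40 and 42 in the deficient pair, and 5 list members were lower. Thresholds of 1.5-fold gave 1876 and 2256 (590 and 864 recurring) and of 3-fold 160 and 113 (88 and 69). Of 633 values of 109 named genes in the wild-type pair under these alternatives, 553 moved by less than the spread between probe sets, 80 by more, and no gene at least 2-fold apart changed sign. Of 49 probe sets at least 2-fold apart and held in both of the authors' deposited tables, 40 were so there too, and none changed sign. With values below the floor carrying no order and 1 array per group, differences of low genes are the least certain.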
